A study of Mus musculus and Rattus norvegicus with 51 samples.

Results

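Collagen genes, 44 in all, were followed through 51 libraries of a study of HMGB1 forms in liver fibrosis. Members were all features whose symbol has the form Col, a number, a and a number. Both mouse liver tables held all 44, among 24421 and 24982 genes, and the table of rat cells held 27 of its 17327 genes, so 27 collagens were in all 3 tables. The members fall into 11 fibrillar collagens, 6 chains of basement membrane collagen IV, 9 FACIT collagens, 6 chains of beaded filament collagen VI and 12 others. The cell table held 10, 3, 4, 2 and 8 of these classes, and genes such as Col4a2, Col6a1, Col6a3 and Col12a1 were not analysed here in cells.

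Collagens are secreted as chains that wind around each other into a stiff helix and are then assembled outside the cell. Fibrillar collagens build the cables of scar, collagen IV builds the sheet under epithelia and endothelia, collagen VI builds fine beaded filaments, and FACIT collagens sit on the surface of fibrils. In injured liver, hepatic stellate cells that turn into myofibroblasts are known as the main source of fibrillar collagen, while the multiplexin Col18a1, the precursor of endostatin, is known to be made by hepatocytes.

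The series asks, per its title, how redox forms of HMGB1 contribute to the progression and resolution of liver fibrosis. HMGB1 is a nuclear protein that injured cells release, and the labels write its forms as [H], [O] and [SO3] without spelling them out. In the first liver table, 3 arms of male mice received CCl4, a hepatotoxin that scars the liver, or MO for 4 weeks. The labels do not spell out MO. The arms were Hmgb1ΔHepΔMye mice given Δ[O] HMGB1, Hmgb1ΔHepΔMye mice given WT HMGB1 and wild-type mice, with 4 CCl4 and 3 MO livers per arm. These are called the +Δ[O], the +WT and the wild-type livers here. The name of these deposited counts also gives AAV8, which the labels do not explain. The +WT and +Δ[O] mice share the Hmgb1 deletion, which the labels do not spell out, so that neither is a deletion without added HMGB1. Between +WT and wild-type livers, the deletion and the added HMGB1 cannot be told apart. In the second liver table, wild-type male mice received CCl4 for 4 weeks with [O] HMGB1, [H] HMGB1 or BSA (fibrosis), or were left to regress for 1 week with [SO3] HMGB1, an HMGB1 antibody or BSA (resolution), with 3 livers each. HSC-T6, a rat hepatic stellate cell line, received [SO3], [O] or [H] HMGB1 or BSA for 6 h, with 3 libraries each.

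Libraries held 22598631 to 39323123 gene counts in the first liver table, 8355714 to 16327132 in the second and 11752661 to 16981255 in the cells. The HSC-T6 libraries expressed 6 of 7 stellate cell and fibroblast markers, led by Vim at 4697 to 6028 CPM, and Lrat, which marks quiescent stellate cells, was at 0 in all 12. Alb, a hepatocyte marker, reached at most 0.127 CPM there. The processing notes name a mouse build for these rat libraries. Whether values at or near 0 there reflect the cells or the assignment of reads was not tested. Hmgb1 itself was at 61.7 to 92.3 CPM in +Δ[O] CCl4 livers, 44.9 to 74.1 CPM in +WT CCl4 livers and 57.2 to 107 CPM in wild-type CCl4 livers. With CCl4 the +WT over wild-type log2 difference was -0.35 (edgeR adjusted p = 0.188). With MO, Hmgb1 was at 131 to 215 CPM in +Δ[O] livers, 63.9 to 74.7 CPM in +WT livers and 72.8 to 77.3 CPM in wild-type livers. The +Δ[O] over +WT log2 difference with MO was 1.31 (edgeR adjusted p = 0.165). In +Δ[O] livers Hmgb1 was lower with CCl4 than with MO (log2 difference -1.21, edgeR adjusted p = 0.000336). Whether reads of the added HMGB1 count towards Hmgb1 is not given in the sources used here. Library 3 of the fibrosis BSA group stood apart from libraries 1 and 2, and library 2 of that group had 539 CPM of summed cholangiocyte markers against 57.6 and 42.2 CPM in libraries 1 and 3. Nearly all of that sum was Sox9 (at most 523 CPM), while Krt7, Krt19 and Epcam reached at most 11.6, 17.1 and 3.82 CPM in the group. Counts of calls against the fibrosis BSA group, and log2 differences of several named genes, are therefore given with and without library 3. Other values of that group include library 3.

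Windows of 5 promoters are printed because the genes they belong to carry the main liver pattern: Col3a1, Col5a1 and Col6a3 rose together with CCl4, while Col5a3 and Col27a1 were the fibrillar collagens that fell in an arm. Each window is the 250 bases before the RefSeq gene start on GRCm38.p6, written 5′ to 3′ on the gene's strand. Capitals mark matches on either strand to the CCAAT box, the TATAAA box, the GC box GGGCGG or the G-rich motif GGGAGGG, the last of which can overlap itself.
Col3a1, chr1:45311288-45311537, plus strand: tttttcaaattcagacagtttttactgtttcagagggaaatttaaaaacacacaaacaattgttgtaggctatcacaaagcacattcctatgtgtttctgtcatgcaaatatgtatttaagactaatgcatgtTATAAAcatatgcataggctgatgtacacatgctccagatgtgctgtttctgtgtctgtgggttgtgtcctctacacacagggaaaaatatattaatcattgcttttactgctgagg
Col5a1, chr2:27886175-27886424, plus strand: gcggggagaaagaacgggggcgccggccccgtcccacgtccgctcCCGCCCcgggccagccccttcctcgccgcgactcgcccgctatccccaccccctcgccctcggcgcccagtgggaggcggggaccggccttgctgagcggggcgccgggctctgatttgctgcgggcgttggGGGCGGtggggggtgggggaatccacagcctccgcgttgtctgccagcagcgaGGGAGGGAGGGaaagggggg
Col6a3, chr1:90843972-90844221, minus strand: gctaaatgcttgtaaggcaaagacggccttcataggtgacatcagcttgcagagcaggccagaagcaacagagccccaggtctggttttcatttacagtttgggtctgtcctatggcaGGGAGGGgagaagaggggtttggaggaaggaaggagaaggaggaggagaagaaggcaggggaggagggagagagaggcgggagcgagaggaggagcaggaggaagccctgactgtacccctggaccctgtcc
Col5a3, chr9:20815068-20815317, minus strand: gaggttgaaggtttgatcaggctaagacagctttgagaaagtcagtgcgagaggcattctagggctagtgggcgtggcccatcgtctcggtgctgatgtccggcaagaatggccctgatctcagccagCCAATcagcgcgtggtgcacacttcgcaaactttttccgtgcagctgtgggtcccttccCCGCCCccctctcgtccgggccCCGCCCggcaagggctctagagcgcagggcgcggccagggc
Col27a1, chr4:63215162-63215411, plus strand: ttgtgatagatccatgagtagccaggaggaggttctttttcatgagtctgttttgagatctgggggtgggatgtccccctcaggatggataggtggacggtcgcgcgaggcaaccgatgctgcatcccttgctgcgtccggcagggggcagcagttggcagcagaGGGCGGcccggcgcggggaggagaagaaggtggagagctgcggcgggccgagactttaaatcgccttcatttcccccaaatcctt
The Col3a1 window held 1 TATAAA box, with its first base at -117 from the start, and 35.2% G and C. The Col5a1 window held 2 GC boxes and 2 overlapping G-rich motifs at 76.4% G and C. The Col6a3 window held 1 G-rich motif, the Col5a3 window 1 CCAAT box and 2 GC boxes, and the Col27a1 window 1 GC box. Over 38 windows of 35 collagen genes in the RefSeq table, the GC box was in 57.9%, the G-rich motif in 47.4%, the CCAAT box in 34.2% and the TATAAA box in 13.2%. Over all 32851 windows these shares were 32.7%, 19.7%, 33.9% and 12.4%. The median G and C content was 59.0% in the collagen windows and 52.4% in all windows. The part of base composition in the motif shares was not tested. No match says anything on its own about binding.

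Among the collagens that each table held, the highest differed between livers and cells. Per kb of transcript, Col18a1 was highest in every liver group, at a mean of 171 CPM per kb in wild-type CCl4 livers and 224 CPM per kb in wild-type MO livers. The next collagen was Col3a1 (34.2 CPM per kb) in wild-type CCl4 livers and Col5a3 (4.93 CPM per kb) in wild-type MO livers. In HSC-T6 cells with BSA, Col1a1 led at 6562 CPM per kb, followed by Col3a1 at 3884 and Col5a2 at 1055 CPM per kb, with mouse transcript lengths standing in for rat ones. Collagens made up 8.09% ± 0.0974 of the gene counts of HSC-T6 cells with BSA, against 0.117% ± 0.00755 in wild-type MO livers (SD, n = 3 each). The cell table held 27 of the 44 collagens, and the processing notes name a mouse build for these rat libraries. Levels set between genes in the cells, or between cells and livers, are therefore uncertain. Fibrillar collagens took 18.3% to 35.6% of collagen CPM in wild-type CCl4 livers and 5.68% to 10.9% in wild-type MO livers, without overlap. The share of Col18a1 was 40.1% to 66.0% in wild-type CCl4 livers and 79.8% to 87.6% in wild-type MO livers. Such a share falls when other collagens rise, whatever the gene itself does. Col18a1 was at 903, 727, 918 and 1286 CPM in wild-type CCl4 livers and 1359, 1250 and 1147 CPM in MO livers, with overlap. None of the 8 others tested there, Col18a1 among them, was called lower with CCl4.

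**Figure D1:**
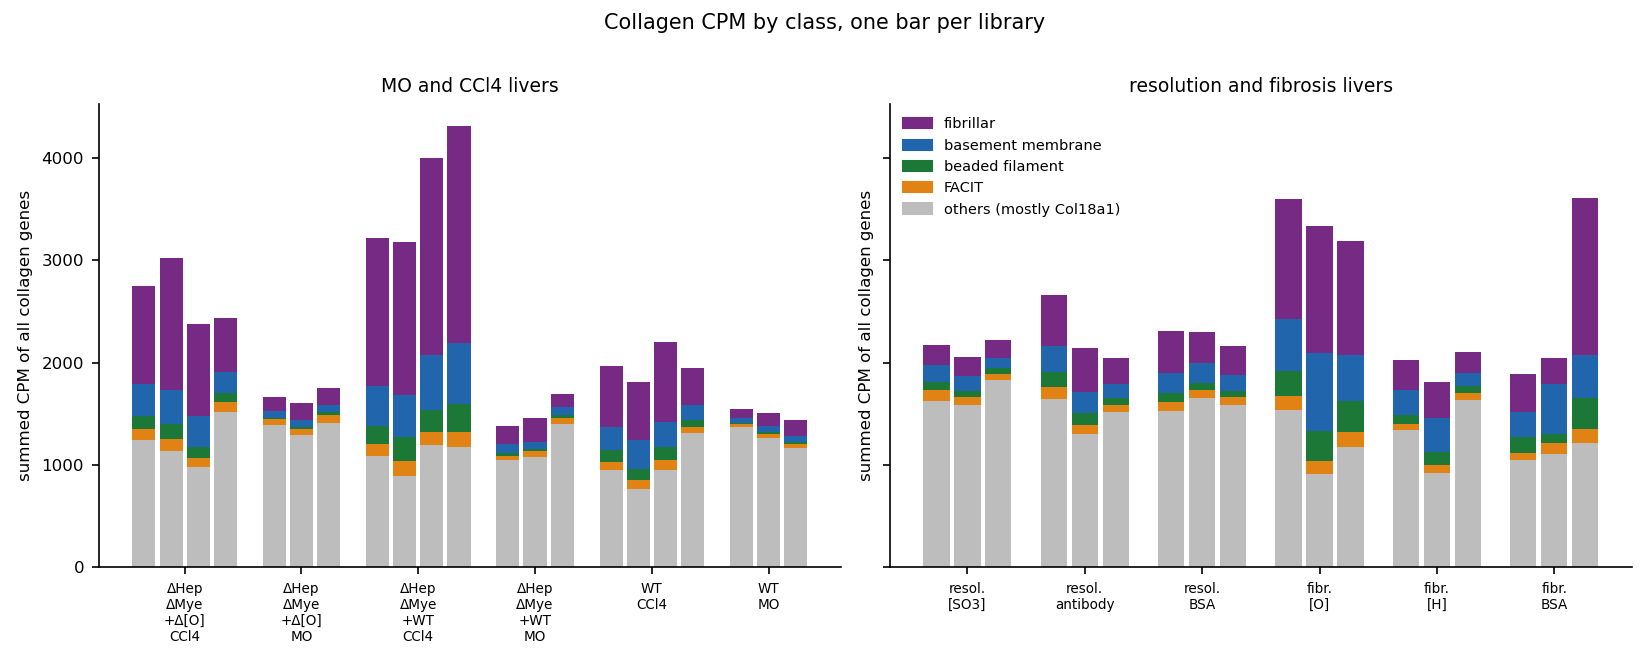
Summed CPM of the 44 collagens in each liver library, stacked by class, where the others are mostly Col18a1. Each bar is 1 library and groups run along the x axis. Fibrillar collagens take 45.0% to 49.1% of the bar in +WT CCl4 livers and 5.68% to 10.9% in wild-type MO livers.

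In wild-type livers, CCl4 raised the main fibrillar, basement membrane and beaded filament chains, among them Col1a1, Col3a1, Col4a1, Col4a2 and Col6a3, and 20 of the 33 collagens that passed the filter on low counts differed at an edgeR adjusted p under 0.05, with 19 higher and 1 lower. Over all 14129 genes tested 46.3% differed, 22.8% higher and 23.5% lower. The median log2 difference was 1.73 over the 33 collagens and -0.0044 over all genes. By class, 5 of 9 fibrillar collagens rose and 1 fell, and 3 of 6 collagen IV chains, 5 of 6 collagen VI chains, 3 of 4 FACIT collagens and 3 of 8 others rose. The 11 collagens that did not pass the filter (Col2a1, Col9a1, Col9a2, Col9a3, Col10a1, Col11a1, Col17a1, Col19a1, Col22a1, Col26a1 and Col28a1, many of them known from cartilage, skin or nerve) stayed at or under 0.709 CPM in every library of the table, and Col10a1, the growth plate collagen, was at 0 in all of them.

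Col1a1, the main chain of collagen I, the bulk of scar fibres, had 139, 139, 209 and 87.4 CPM in wild-type CCl4 livers, against 2.72, 7.27 and 13.6 CPM in wild-type MO livers. All CCl4 livers were above all MO livers, and CCl4 library 4 was the lowest of its group. The log2 difference was 4.20 (SE 0.57, edgeR adjusted p = 1.61e-05), a fold of 18.3. Its partner chain Col1a2 had 142, 137, 185 and 63.0 CPM in CCl4 livers and 9.59, 15.5 and 30.0 CPM in MO livers, a log2 difference of 2.84 (SE 0.50). Col3a1, which forms collagen III fibres on its own, had 202, 183, 265 and 112 CPM in CCl4 livers and 10.8, 19.0 and 28.4 CPM in MO livers, a log2 difference of 3.30 (SE 0.37). Neither gene's groups overlapped. Collagen V, which nucleates collagen I fibrils, rose by 2.76 (Col5a1) and 2.73 (Col5a2) on the log2 scale. Its chain Col5a3 had 15.2, 10.6, 17.5 and 26.5 CPM in CCl4 livers and 28.1, 32.2 and 30.1 CPM in MO livers, without overlap, yet its log2 difference of -0.79 missed the test (edgeR adjusted p = 0.169).

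Among the network and filament collagens, Col4a1 had 129, 171, 144 and 83.5 CPM in wild-type CCl4 livers and 26.4, 32.1 and 30.4 CPM in wild-type MO livers, a log2 difference of 2.15 (SE 0.22). Col4a2, with which it shares a helix, had 86.5, 101, 85.6 and 57.5 CPM in CCl4 livers and 18.5, 16.4 and 19.2 CPM in MO livers, a log2 difference of 2.20 (SE 0.23). The groups of both chains lay apart. Col6a3, the long chain of collagen VI, had 50.5, 48.6, 52.4 and 26.5 CPM in CCl4 livers and 3.74, 5.19 and 4.16 CPM in MO livers, a log2 difference of 3.36 (SE 0.28, edgeR adjusted p = 6.06e-08). Col6a1 had 35.1, 32.4, 38.0 and 21.1 CPM in CCl4 livers and 4.98, 10.3 and 13.4 CPM in MO livers, a log2 difference of 1.73 (SE 0.27). Col6a2 had 24.4, 22.9, 29.0 and 15.7 CPM in CCl4 livers and 3.41, 5.35 and 8.73 CPM in MO livers, a log2 difference of 1.98 (SE 0.27). The groups of Col6a1, Col6a2 and Col6a3 did not overlap, and CCl4 library 4 was the lowest CCl4 liver for each of them. Col6a5, which can take the place of Col6a3, was at 0.411 to 2.77 CPM with CCl4 and 0.0411 to 0.820 CPM with MO, with overlap.

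Outside these classes Col8a1, a short-chain network collagen of vessels, had 3.69, 4.46, 4.12 and 1.94 CPM in wild-type CCl4 livers and 0.0823, 0.328 and 0.647 CPM in MO livers, a log2 difference of 3.35 (SE 0.60). The multiplexin Col15a1, found beside basement membranes, rose by 1.95 (SE 0.21) on the log2 scale. The FACIT collagens that rose were Col12a1 (log2 difference 2.41), Col16a1 (1.67) and Col14a1 (1.15). The fibrillar collagen Col27a1 fell, with 25.8, 17.9, 11.3 and 23.8 CPM in CCl4 livers and 27.4, 46.7 and 37.4 CPM in MO livers, a log2 difference of -0.92 (SE 0.32, edgeR adjusted p = 0.0252). Its groups lay next to each other without overlap. The call was lost without MO library 2 (adjusted p = 0.118), MO library 3 (0.0576), CCl4 library 2 (0.0655) or CCl4 library 3 (0.0729). Col6a5 lost its call without MO library 1 (0.0839), MO library 3 (0.0757) or CCl4 library 1 (0.0554), and Col8a2 lost its call without MO library 3 (0.0844).

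Whole liver RNA cannot tell more cells of a type from more RNA per cell. Beside these changes, the summed CPM of 7 stellate cell and fibroblast markers was 259.9 to 430.1 in wild-type CCl4 livers and 149.6 to 240.9 in wild-type MO livers, with 6 of 7 genes higher. The summed hepatocyte markers were at 80323 to 117250 CPM in CCl4 livers and 134150 to 156070 CPM in MO livers, with 3 of 5 lower. The dividing cell markers summed to 13.7 to 42.4 CPM with CCl4 and 4.57 to 6.95 CPM with MO, with 2 of 2 higher. The macrophage markers summed to 167 to 243 CPM with CCl4 and 338 to 375 CPM with MO, with 1 of 4 higher and 1 lower. Of 5 sinusoidal endothelium markers 2 were higher and 2 lower. Higher as well were 2 of 4 cholangiocyte and 1 of 2 smooth muscle markers, and 0 of 3 mesothelium markers were called. Their part in the collagen results was not tested. Of a list of 26 genes that make, modify or cross-link collagen, 14 of 25 tested rose and 2 fell in wild-type CCl4 livers. The cross-linking oxidases Lox (log2 difference 4.30) and Loxl2 (3.49) led the rise, and Bmp1, which trims the C-terminal propeptide, and the lysyl hydroxylase Plod1 fell by 0.67 and 0.50. Of 9 collagen-degrading proteases, inhibitors and uptake receptors, 7 rose and 0 fell, led by the collagenase Mmp13 (5.86) and the gelatinase Mmp2 (2.93). Of 8 tested collagen receptors 4 rose, led by Ddr1 (2.30) and the integrin chain Itga11 (1.70), and Itga10 fell by 0.89.

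**Figure D2:**
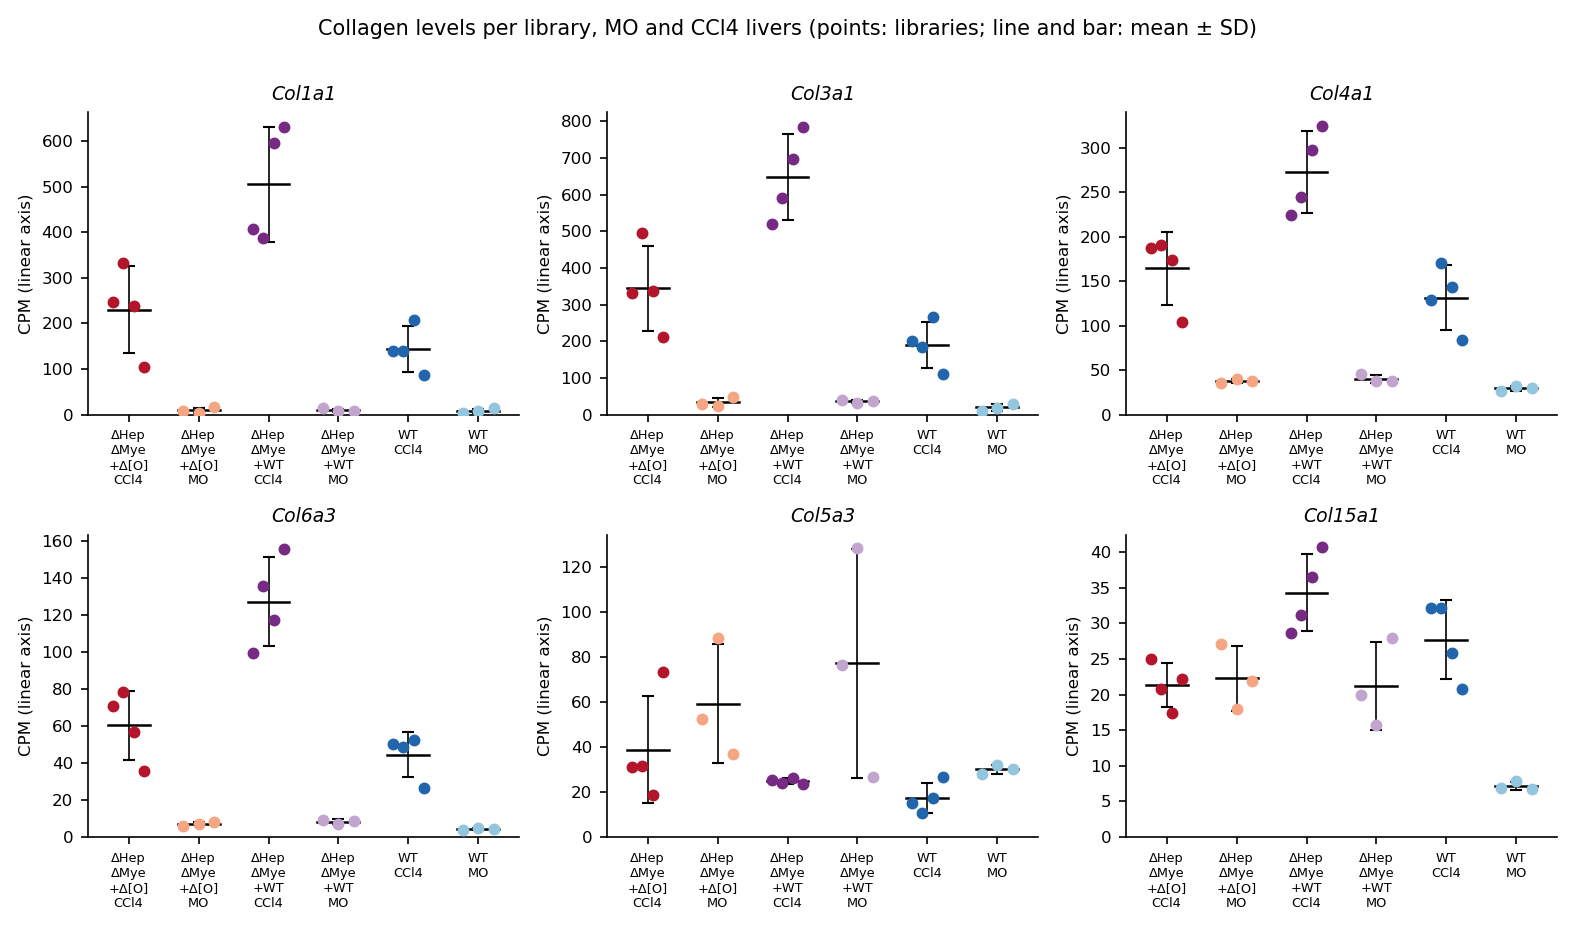
CPM of 6 collagens in the +Δ[O], +WT and wild-type livers, CCl4 left of MO in each arm. Points are libraries, lines are means and error bars are SD over 4 CCl4 or 3 MO livers, cut at 0. Col1a1, Col3a1, Col4a1 and Col6a3 lie higher with CCl4 in each arm, Col5a3 reaches 128 CPM in a +WT MO liver, and Col15a1 is at 6.79 to 7.81 CPM in wild-type MO livers and at 15.8 to 27.9 CPM in +WT MO livers.

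In the +WT livers members of each class rose with CCl4. Of the 33 collagens tested, 20 were higher and 2 lower with CCl4 than with MO, beside 47.3% of all genes (23.3% higher, 24% lower), and the median log2 difference was 2.14 over the collagens and -0.03 over all genes. Col1a1 had 408, 387, 596 and 632 CPM in +WT CCl4 livers and 13.3, 7.19 and 8.58 CPM in +WT MO livers. Every CCl4 liver was far above the MO livers, with a log2 difference of 5.70 (SE 0.61, edgeR adjusted p = 2.79e-06) and a fold of 52.1. Col1a2 had 360.4, 352, 416 and 463 CPM in CCl4 livers and 15.5, 13.8 and 22.7 CPM in MO livers, a log2 difference of 4.52 (SE 0.54). Col3a1 had 520.0, 591, 696 and 785 CPM in CCl4 livers and 40.7, 31.0 and 35.8 CPM in MO livers, a log2 difference of 4.18 (SE 0.38). The collagen IV chains Col4a1 and Col4a2 rose by 2.76 and 2.88 on the log2 scale, and the collagen VI chains Col6a3, Col6a2 and Col6a1 by 3.91, 2.48 and 2.22. Col4a1 had 225, 244, 297 and 325 CPM in CCl4 livers and 45.4, 38.2 and 37.6 CPM in MO livers, and Col4a2 had 144, 148, 223 and 251 CPM in CCl4 livers and 32.3, 27.1 and 19 CPM in MO livers. The long chain Col6a3 had 99.7, 136, 118 and 156 CPM in CCl4 livers and 9.29, 7.11 and 8.92 CPM in MO livers. None of these groups overlapped. For Col6a1 the values were 44.6, 57, 53.8 and 66.8 CPM in CCl4 livers and 11.7, 11.7 and 12.4 CPM in MO livers. For Col6a2 they were 34.5, 42.1, 43.6 and 51.1 CPM in CCl4 livers and 7.17, 7.15 and 8.64 CPM in MO livers, so that these chains were apart as well. Col7a1, the anchoring fibril collagen, rose by 1.45 in these livers and lost its call without MO library 1 (adjusted p = 0.0576).

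Col5a3 and the FACIT collagen Col20a1 fell in the +WT livers. Col5a3 had 25.4, 23.9, 26.2 and 23.4 CPM with CCl4 and 76.4, 128 and 26.4 CPM with MO, a log2 difference of -1.64 (SE 0.45, edgeR adjusted p = 0.00701). The CCl4 livers lay close together and the MO livers were spread, with MO library 3 just above the highest CCl4 liver. Without MO library 2 the log2 difference was -1.06 and the call was lost (adjusted p = 0.0822). Col20a1 had 0.729, 0.923, 0.734 and 1 CPM with CCl4 and 1.5, 1.84 and 1.64 CPM with MO, without overlap, a log2 difference of -0.97 (SE 0.34). It lost its call without MO library 2 (0.0807), CCl4 library 1 (0.0602) or CCl4 library 4 (0.0647). The summed stellate cell and fibroblast markers were 377 to 502.5 CPM in +WT CCl4 livers and 225 to 283 CPM in +WT MO livers, with 6 of 7 higher, and the dividing cell markers were 151 to 267 CPM with CCl4 and 11 to 14.5 CPM with MO. Of the macrophage markers 3 of 4 were higher, with sums of 411 to 485 CPM with CCl4 and 229.6 to 369 CPM with MO. Of the hepatocyte markers 3 of 5 were lower, with sums of 75805 to 87113 CPM with CCl4 and 92802 to 139890 CPM with MO. What part these lists had was not tested. Of the collagen-handling genes, 17 of 25 biosynthesis genes rose and 0 fell, led by Lox (4.32) and Loxl2 (3.43). In the same livers 7 of 9 breakdown genes rose, led by Mmp13 (3.89) and the uptake receptor Mrc2 (3.24), and 7 of 8 receptors rose, led by Itga11 (3.00) and Itga2 (2.41).

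In the +Δ[O] livers 17 of the 33 collagens were higher and 0 lower with CCl4 than with MO, beside 24.2% of all genes (12.9% higher, 11.4% lower), with a median log2 difference of 1.19 over the collagens and -0.04 over all genes. Col1a1 had 247, 334, 238 and 104 CPM in +Δ[O] CCl4 livers and 7.05, 4.10 and 15.8 CPM in +Δ[O] MO livers, a log2 difference of 4.67 (SE 0.58, edgeR adjusted p = 2.78e-05). Col1a2 had 226, 311, 217 and 79.9 CPM in CCl4 livers and 11.3, 8.88 and 26.0 CPM in MO livers, a log2 difference of 3.75 (SE 0.52). Col3a1 had 333, 495, 338 and 212 CPM in CCl4 livers and 29.9, 23.3 and 47.7 CPM in MO livers, a log2 difference of 3.35 (SE 0.37). No group overlapped, and CCl4 library 5 was the lowest CCl4 liver for all 3. Col6a3 rose by 3.08, Col4a1 by 2.13, Col4a2 by 2.05 and Col4a5 by 2.57 on the log2 scale. Col6a3 had 70.9, 78.3, 56.8 and 35.9 CPM in CCl4 livers and 6.24, 7.27 and 7.97 CPM in MO livers. Col4a1 was at 188, 191, 174 and 104 CPM in CCl4 livers and 35.2, 40.1 and 37.5 CPM in MO livers. Col4a2 was at 119.9, 117, 111 and 88.6 CPM in CCl4 livers and 28.5, 29.8 and 21.1 CPM in MO livers. The groups of all 3 lay apart. Col6a1 had 30.9, 36.5, 27.7 and 29 CPM in CCl4 livers and 5.95, 6.63 and 10.8 CPM in MO livers, and Col6a2 had 23.8, 28.7, 20.2 and 24.4 CPM in CCl4 livers and 4.43, 4.62 and 7.54 CPM in MO livers. Neither overlapped. Of the weakest calls, Col6a6 (log2 difference 1.18, adjusted p = 0.0473) was lost without MO library 2 or 3 or CCl4 library 1, 3 or 5, with an adjusted p of up to 0.200. Col6a5 (2.02, 0.0432) was lost without MO library 1 or 2 or any 1 CCl4 library, with an adjusted p of up to 0.166. Col12a1 and Col14a1 lost their calls without MO library 1 (0.0601 and 0.0640) or MO library 2 (0.0553 and 0.0797). The stellate cell and fibroblast markers summed to 280 to 384 CPM in +Δ[O] CCl4 livers and 207 to 252 CPM in +Δ[O] MO livers, with 6 of 7 higher. The dividing cell markers summed to 62.5 to 250.05 CPM with CCl4 and 6.39 to 16.1 CPM with MO, with 2 of 2 higher. The part of either list was not tested. Of the collagen-handling genes, 13 of 25 biosynthesis genes (Lox 3.39, Loxl2 2.83), 5 of 9 breakdown genes (Mmp13 3.22, Mmp2 2.57) and 7 of 8 receptors (Itga11 2.48, Itga2 1.72) rose, and Itga10 fell by 1.28.

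**Figure D3:**
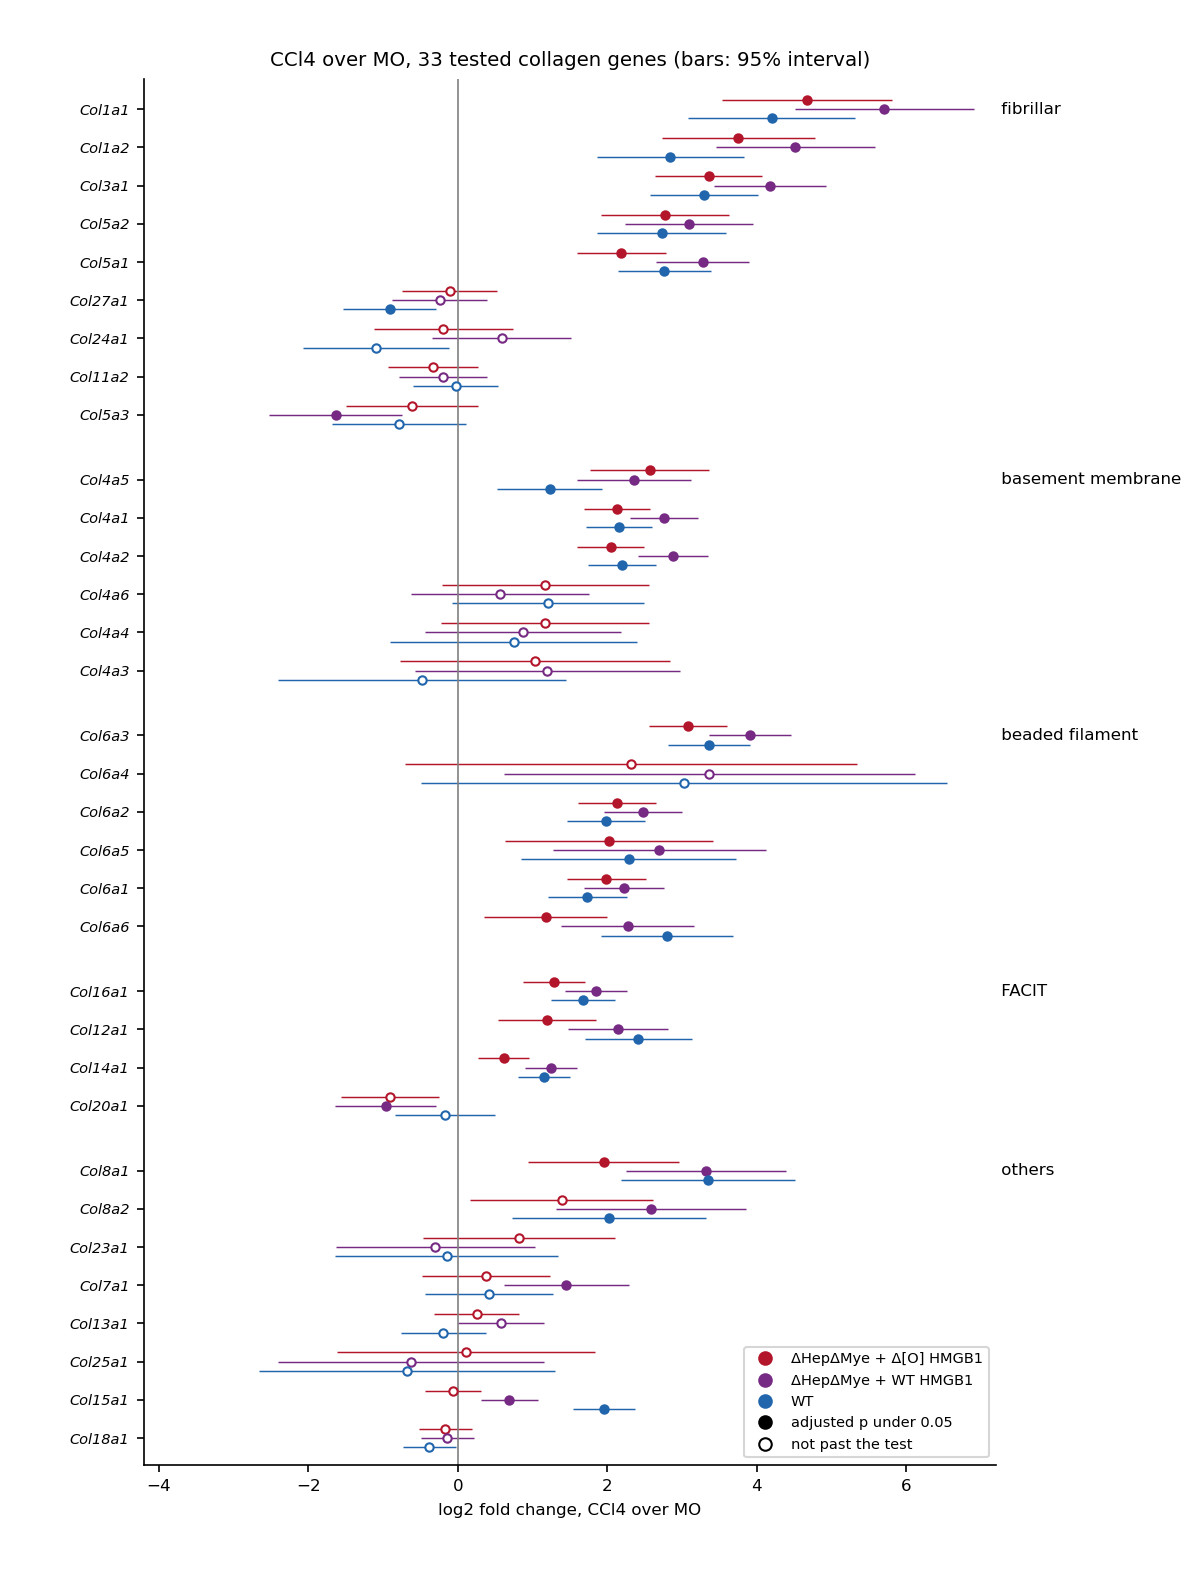
Log2 difference of CCl4 over MO for the 33 tested collagens in +Δ[O], +WT and wild-type livers, ordered by class. Points are edgeR estimates, bars 95% intervals, and filled points have an adjusted p under 0.05. The fibrillar, collagen IV and collagen VI members on the right reach 5.70 (Col1a1, +WT), while Col5a3, Col20a1, Col24a1, Col25a1 and Col27a1 lie around or left of 0 in at least 1 arm.

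The +WT and wild-type CCl4 livers, which differ in both the deletion and the added HMGB1, were compared directly. Of 33 collagens, 14 were higher and 2 lower in +WT CCl4 livers, beside 28.8% of all genes (15.8% higher, 13% lower), and the median log2 difference was 0.70 over the collagens and 0.02 over all genes. By class, 5 of 9 fibrillar, 4 of 6 collagen IV, 3 of 6 collagen VI and 2 of 4 FACIT members were higher. With only these groups in the fit and the replicate number as a block, an alternative chosen after seeing the data, 8 were called, all higher, and without +WT CCl4 library 5 the count was 10. Col6a3 had 99.7, 136, 118 and 156 CPM in +WT CCl4 livers and 50.5, 48.6, 52.4 and 26.5 CPM in wild-type CCl4 livers, a log2 difference of 1.51 (SE 0.22, edgeR adjusted p = 5.9e-05). Col1a1, with the values given above and no overlap, was higher by 1.82 (SE 0.45, adjusted p = 0.00566), Col3a1 by 1.77 (SE 0.31) and Col1a2 by 1.59 (SE 0.42).

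The collagen IV chains known from the kidney filter were among the highest folds. Col4a3 had 9.75, 7.67, 14.2 and 12 CPM in +WT CCl4 livers and 0.244, 0.831, 3.91 and 1.57 CPM in wild-type CCl4 livers, a log2 difference of 2.74 (SE 0.89, edgeR adjusted p = 0.0285). Col4a4 had 2.19, 1.94, 2.94 and 2.28 CPM in +WT CCl4 livers and 0.515, 0.582, 1.07 and 0.485 CPM in wild-type CCl4 livers, a log2 difference of 1.80 (SE 0.64, adjusted p = 0.0422). Neither overlapped, but MO library 3 of the +WT livers already held 10.6 CPM of Col4a3 and 3.08 CPM of Col4a4. Col4a3 lost its call without wild-type library 1, 2 or 4 or +WT library 4 or 5 (adjusted p 0.0544 to 0.0805), and Col4a4 without any 1 library except wild-type library 3 (0.0560 to 0.101). The beaded filament chain Col6a6 was lower, with 1.49, 1.99, 2.58 and 2.41 CPM in +WT CCl4 livers and 5.07, 4.24, 3.74 and 3.21 CPM in wild-type CCl4 livers, a log2 difference of -0.94 (SE 0.35). Col11a2, a minor fibrillar chain, had 0.851, 1.09, 0.881 and 0.656 CPM in +WT CCl4 livers and 1.25, 1.16, 2.09 and 1.68 CPM in wild-type CCl4 livers, a log2 difference of -0.82 (SE 0.27). Both pairs of groups lay apart. Col6a6 lost its call without any 1 library except wild-type library 4 (adjusted p 0.0561 to 0.116), and Col11a2 without wild-type library 3 or 4 or +WT library 1, 4 or 5 (0.0522 to 0.108). Col5a2 (0.99) lost its call without any 1 library except wild-type library 3, with adjusted p of 0.0555 to 0.143. Col6a1 (0.81) lost its call without wild-type library 4 (0.0574) or +WT library 5 (0.0502).

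Beside these differences, the dividing cell markers summed to 151 to 267 CPM in +WT CCl4 livers and 13.7 to 42.4 CPM in wild-type CCl4 livers, and the macrophage markers to 411 to 485 CPM in +WT CCl4 livers and 167 to 243 CPM in wild-type CCl4 livers. The stellate cell and fibroblast markers summed to 377 to 502.5 CPM in +WT CCl4 livers and 259.9 to 430.1 CPM in wild-type CCl4 livers, with 1 of 7 higher. The macrophage markers summed to 411 to 485 CPM in +WT and 167 to 243 CPM in wild-type CCl4 livers, with 4 of 4 higher. Of the sinusoidal endothelium markers 3 of 5 were higher, and 2 of 4 cholangiocyte markers were lower. Their part was not tested. Of 25 biosynthesis genes 8 were higher, led by Lox (1.54) and Pcolce2 (1.03), which enhances propeptide cleavage, and 5 lower, led by the prolyl hydroxylases P3h1 (-0.95) and P4ha2 (-0.86). Of the breakdown genes 2 of 9 were higher (Mmp8 1.22, Timp2 0.57), and of the receptors 3 of 8 were higher (Lair1 1.14 and Ddr2 0.82 led) and Itga10 was lower (-0.72).

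Whether the CCl4 response itself differed was tested as +WT minus wild-type. Col15a1 was the only collagen of 33 called, beside 13.5% of all genes (6.85% higher, 6.64% lower). It had 28.7, 31.2, 36.6 and 40.7 CPM in +WT CCl4 livers and 19.9, 15.8 and 27.9 CPM in +WT MO livers, and 32.1, 32.1, 25.8 and 20.8 CPM in wild-type CCl4 livers and 6.87, 7.81 and 6.79 CPM in wild-type MO livers. The CCl4 levels of both arms overlapped, and the +WT MO livers were above the wild-type MO livers. Its CCl4 response was 0.69 (SE 0.19) in +WT and 1.95 (SE 0.21) in wild-type livers on the log2 scale, and the difference of -1.26 (SE 0.28, edgeR adjusted p = 0.00537) kept its call under all 20 alternatives. The +WT response alone lost its call without +WT MO library 2 (adjusted p = 0.0561). Col1a1 (1.51, 95% interval 0.14 to 2.87, adjusted p = 0.165) and Col1a2 (1.67, 0.41 to 2.94, 0.0944) missed the threshold, and Col1a2 passed it with the replicate block (log2 difference 1.94) and with only the groups compared (adjusted p = 0.0492). Without +WT MO library 2, Col24a1 was called as well (2.40, adjusted p = 0.0359).

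The +Δ[O] and +WT CCl4 livers, which differ in the HMGB1 they were given, differed in 4 of 33 collagens, all lower in +Δ[O], beside 2.31% of all genes (0.113% higher, 2.19% lower). The median log2 difference was -0.58 over the collagens and 0.00083 over all genes. Col6a3 had 70.9, 78.3, 56.8 and 35.9 CPM in +Δ[O] CCl4 livers and 99.7, 136, 118 and 156 CPM in +WT CCl4 livers, a log2 difference of -1.07 (SE 0.22, edgeR adjusted p = 0.0124). Col4a2 had 119.9, 117, 111 and 88.6 CPM in +Δ[O] and 144, 148, 223 and 251 CPM in +WT CCl4 livers, a log2 difference of -0.81 (SE 0.20, adjusted p = 0.0348). Col4a1 had 188, 191, 174 and 104 CPM in +Δ[O] and 225, 244, 297 and 325 CPM in +WT CCl4 livers, a log2 difference of -0.73 (SE 0.19, adjusted p = 0.0498). Groups lay apart for all 3. Col15a1 (-0.68, SE 0.18, adjusted p = 0.0456) was the fourth. Col1a1 was at 104 to 334 CPM in +Δ[O] and 387 to 632 CPM in +WT CCl4 livers, without overlap, and its log2 difference of -1.13 (95% interval -2 to -0.27) missed the test at an adjusted p of 0.213. Col3a1 (-0.91, -1.50 to -0.33, adjusted p = 0.130) and Col1a2 (-0.93, -1.74 to -0.12, adjusted p = 0.291) missed it as well. An unadjusted edgeR p under 0.05 was found for 15 of the 33, beside 2130 of all 14129 genes.

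These calls were few and moved with the settings. With the replicate number as a block 5 collagens were called, without Col15a1 (adjusted p = 0.0617) and with Col6a1 (0.0391) and Col6a2 (0.0433), and with only these groups and the block the count was 0. DESeq2 called 7. The count was 2 without +WT library 3, 1 without +WT library 4, 0 without +WT library 5, 1 without +Δ[O] library 1, 0 without +Δ[O] library 3 and 1 without +Δ[O] library 5. The macrophage markers summed to 201 to 423 CPM in +Δ[O] CCl4 livers and 411 to 485 CPM in +WT CCl4 livers, with 1 of 4 lower, and 0 of 7 stellate cell and fibroblast markers were called. Their part was not tested. Of the collagen-handling genes only Lair1, a collagen receptor of immune cells, was called (-1.05, adjusted p = 0.0137). With MO, edgeR called 0 of 33 collagens and 0% of all genes between +Δ[O] and +WT livers, and DESeq2 called 0 collagens. Unadjusted, 1 collagen and 1549 of all 14129 genes had an edgeR p under 0.05. The log2 difference of Col1a1 was -0.10 (95% interval -1.14 to 0.94). The difference between the 2 CCl4 responses (+Δ[O] minus +WT) called 0 of 33 collagens and 0% of all genes in edgeR and 0 collagens in DESeq2. There 6 of 33 collagens had an unadjusted edgeR p under 0.05, beside 2098 of all 14129 genes, and Col15a1 was lowest (-0.75, adjusted p = 0.233). It was called without +WT MO library 3 (-1, adjusted p = 0.0284).

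The next comparison set the livers of mice that received [O], [H] or BSA with CCl4 against each other. The main scar collagens Col1a1, Col1a2 and Col3a1 were at higher levels in each [O] than in any [H] liver, while the BSA livers spanned both. No collagen passed the test in the edgeR fit over all groups without a block. The fibrillar collagen Col27a1 did not share this, at 21.1, 14.0 and 15.7 CPM with [O] and 32.7, 11.1 and 15.5 CPM with [H], with overlap. Col1a1 had 292, 294 and 273 CPM with [O], 46.7, 60.2 and 29.5 CPM with [H] and 50.4, 30.3 and 414 CPM with BSA. The [O] and [H] livers lay far apart, and BSA library 3 was above every [O] liver while BSA libraries 1 and 2 lay among the [H] livers. Col3a1 followed with 401, 443 and 413 CPM with [O], 85.8, 106 and 71.6 CPM with [H] and 129, 54.2 and 557 CPM with BSA. Col1a2 had 283, 268 and 235 CPM with [O], 55.0, 78.3 and 37.3 CPM with [H] and 78.1, 47.3 and 370.2 CPM with BSA. Again every [O] liver lay above every [H] liver, and BSA library 3 was the highest of all.

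Col6a3 had 110.5, 100.1 and 138 CPM with [O], 21.8, 30.0 and 17.6 CPM with [H] and 34.8, 32.2 and 135 CPM with BSA. Col6a1 had 70.4, 109.7 and 85.6 CPM with [O], 30.7, 49.9 and 29.6 CPM with [H] and 63.9, 33.1 and 89.2 CPM with BSA. Col6a2 had 54.3, 84.9 and 66.8 CPM with [O], 21.4, 34.2 and 18.5 CPM with [H] and 43.8, 20.4 and 69.2 CPM with BSA. All 3 of these chains lay higher in each [O] than in any [H] liver. For collagen IV, Col4a1 was at 278, 433 and 250.1 CPM with [O], 131, 191 and 71.2 CPM with [H] and 129.9, 285 and 221 CPM with BSA. Col4a2 had 224, 305 and 183 CPM with [O], 112, 137 and 52.6 CPM with [H] and 109.7, 195 and 173 CPM with BSA. Again [O] lay above [H] in every liver. The share of all genes whose [O] livers lay apart from the [H] livers was not computed. Fibrillar collagens made up 32.5% to 37.4% of collagen CPM with [O], 9.61% to 19.4% with [H] and 12.3% to 42.6% with BSA.

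Against [H], the [O] livers had log2 differences of 2.65 for Col1a1 (95% interval 1.26 to 4.05, edgeR adjusted p = 0.135), 2.25 for Col3a1 (1.14 to 3.36, 0.131), 2.33 for Col6a3 (1.41 to 3.25, 0.123) and 1.29 for Col4a1 (0.57 to 2.00, 0.154). In the edgeR fit over all groups without a block, none of the 31 collagens tested passed, beside 0% of 13487 genes. Unadjusted, 16 of the 31 had an edgeR p under 0.05, beside 1413 of all genes. The median log2 difference was 1.02 over the collagens and -0.06 over all genes. DESeq2 called 11 of the collagens, all higher with [O], namely Col1a1, Col1a2, Col3a1, Col5a1, Col5a2, Col4a1, Col4a2, Col6a1, Col6a2, Col6a3 and Col16a1. The replicate numbers were taken to pair these livers from correlations in these data, since the labels do not state a pairing. With the replicate number as a block over all groups the count stayed at 0. With only these groups and the block, chosen after seeing the data, it was 11, again all higher (Col1a1 adjusted p = 0.0376). The shares of all genes called by DESeq2 and by that fit are not given here. The stellate cell and fibroblast markers summed to 605 to 861 CPM with [O], 266 to 467 CPM with [H] and 443 to 833 CPM with BSA. The macrophage markers summed to 495 to 552 CPM with [O], 235 to 358 CPM with [H] and 354 to 703 CPM with BSA. Sinusoidal endothelium markers summed to 217 to 269 CPM with [O], 82.1 to 201 CPM with [H] and 185 to 323 CPM with BSA. Sums of the hepatocyte, cholangiocyte, mesothelium, smooth muscle and dividing cell markers overlapped between [O] and [H]. No marker of these lists was called. Their part was not tested.

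Set against BSA, neither form gave a call. For [O] against BSA edgeR called 0 of 31 collagens and 0% of all genes, and DESeq2 called 0. Unadjusted, 6 of the 31 and 727 of all 13487 genes had an edgeR p under 0.05. The Col1a1 log2 difference was 0.80 (95% interval -0.52 to 2.11, adjusted p = 0.899). For [H] against BSA the counts were 0 of 31 and 0%, and 0 by DESeq2. Here 11 of the 31 and 1448 of all 13487 genes had an unadjusted edgeR p under 0.05. The Col1a1 log2 difference for [H] was -1.86 (95% interval -3.22 to -0.50, adjusted p = 0.418). Leaving out BSA library 3, with its 346 CPM of dividing cell markers against 44.6 and 5.54 CPM in libraries 1 and 2, also gave 0 calls in both comparisons but moved the values. For [H] the Col1a1 log2 difference was then 0.17 (adjusted p = 0.863), so that its sign turned, and that of Col3a1 was -0.06. For [O] the Col1a1 log2 difference was then 2.82 (adjusted p = 0.112), that of Col3a1 2.19 and that of Col6a3 1.79. No collagen-handling gene was called in these 3 comparisons.

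**Figure D4:**
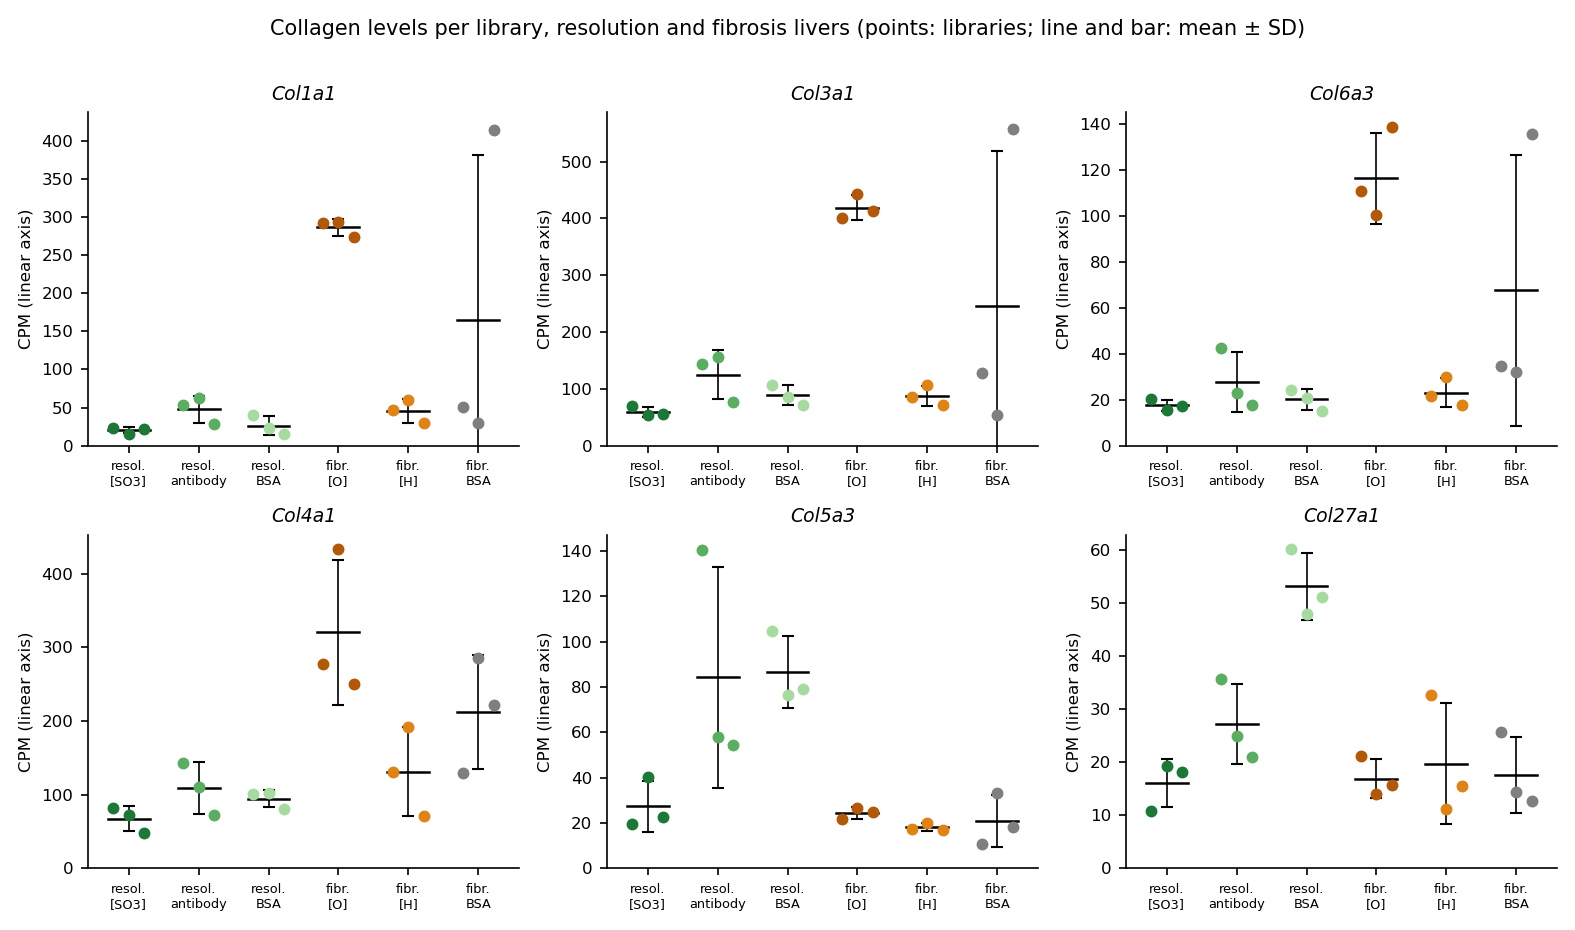
CPM of 6 collagens in resolution livers ([SO3], antibody, BSA) and fibrosis livers ([O], [H], BSA). Points are livers, lines means and error bars SD over 3 livers, cut at 0. Fibrosis BSA library 3 (414 CPM of Col1a1) sits with the [O] livers, Col27a1 is highest in the resolution BSA livers (48.0 to 60.3 CPM), and Col5a3 is highest in a resolution antibody liver (141 CPM), with the resolution BSA livers at 76.4 to 105 CPM.

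Resolution was compared with fibrosis in the BSA livers. Of 31 collagens 8 were lower and 2 higher after 1 week of regression, beside 9% of all genes (2.4% higher, 6.6% lower), and the median log2 difference was -0.99 over the collagens and -0.04 over all genes. Col1a1 had 39.8, 23.3 and 16.1 CPM in resolution BSA livers and 50.4, 30.3 and 414 CPM in fibrosis BSA livers, a log2 difference of -2.64 (SE 0.72, edgeR adjusted p = 0.0372). The groups overlapped, and without fibrosis library 3 the log2 difference was -0.61 (adjusted p = 0.283). Col1a2 had 56.7, 36.9 and 29.2 CPM in resolution and 78.1, 47.3 and 370.2 CPM in fibrosis livers, a log2 difference of -2.01 (SE 0.56) that was -0.61 (adjusted p = 0.232) without that library. Col5a2 had 13.1, 10.1 and 9.29 CPM in resolution and 42.6, 25.0 and 70.5 CPM in fibrosis livers, without overlap, a log2 difference of -2.08 (SE 0.37, adjusted p = 0.0133). Col6a3 had 24.3, 20.8 and 15.3 CPM in resolution and 34.8, 32.2 and 135 CPM in fibrosis livers, a log2 difference of -1.74 (adjusted p = 0.0361), which was -0.73 without fibrosis library 3 (adjusted p = 0.130). Col4a5, Col12a1, Col5a1 and Col6a2 completed the fall, with log2 differences of -1.69, -1.43, -1.33 and -1.31, and without fibrosis library 3 these were -1.12, -1.14, -0.80 and -0.84 and no longer called.

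The fibrillar collagens Col5a3 and Col27a1 moved the other way. Col5a3 had 105, 76.4 and 78.9 CPM in resolution BSA livers and 10.8, 33.3 and 18.4 CPM in fibrosis BSA livers, a log2 difference of 2.06 (SE 0.41, edgeR adjusted p = 0.0163). Col27a1 had 60.3, 48.0 and 51.2 CPM in resolution and 25.8, 14.4 and 12.7 CPM in fibrosis livers, a log2 difference of 1.59 (SE 0.37, adjusted p = 0.0232). All resolution livers lay above all fibrosis livers for both. Col4a1 (101, 102 and 80.9 CPM in resolution, 129.9, 285 and 221 CPM in fibrosis, adjusted p = 0.0542) missed the test although its groups lay apart, and so did Col3a1 (107, 86.4 and 72.3 CPM in resolution, 129, 54.2 and 557 CPM in fibrosis, adjusted p = 0.0914), whose groups overlapped. The count of calls was 3 without fibrosis library 3 and 0 without any 1 of resolution libraries 1, 2 and 3, and 0 with only these groups in the fit. The dividing cell markers summed to 6.85 to 8.28 CPM in resolution BSA livers and 5.54 to 346 CPM in fibrosis BSA livers, the stellate cell and fibroblast markers to 372 to 439 CPM in resolution and 443 to 833 CPM in fibrosis livers, with 2 of 7 lower. The mesothelium markers summed to 2.72 to 6.64 CPM in resolution and 17.1 to 68.1 CPM in fibrosis BSA livers, with 3 of 3 lower, and the cholangiocyte markers to 16.2 to 23.1 CPM in resolution and 42.2 to 539 CPM in fibrosis BSA livers, with 3 of 4 lower. Both dividing cell markers were also lower. The part of these lists in the result was not tested. Of the collagen-handling genes, 5 of 25 biosynthesis genes (Lox -2.50 and the lysyl hydroxylase Plod2 -1.99 led), 2 of 9 breakdown genes (Mmp13 -3.85, Timp2 -0.85) and 1 of 7 receptors (Ddr1 -2.39) were lower and none was higher.

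Within resolution, [SO3] HMGB1 was compared with BSA. Col1a1 was at 22.9, 15.8 and 22.3 CPM with [SO3] and 39.8, 23.3 and 16.1 CPM with BSA, and Col3a1 was at 70.4, 54.4 and 55.8 CPM with [SO3] and 107, 86.4 and 72.3 CPM with BSA. Their log2 differences were -0.38 (95% interval -1.73 to 0.96) and -0.56 (-1.63 to 0.51). Col4a1 was at 81.3, 73 and 48.4 CPM with [SO3] and 101, 102 and 80.9 CPM with BSA, and Col6a3 was at 20.2, 15.5 and 17.3 CPM with [SO3] and 24.3, 20.8 and 15.3 CPM with BSA. Both pairs of groups overlapped. The largest log2 difference of the 31 was in the minor collagen IV chain Col4a3, which had 4.21, 1.83 and 1.83 CPM with [SO3] and 0.0685, 0.388 and 0.376 CPM with BSA. Its groups did not overlap, and the log2 difference of 3.28 (95% interval 0.99 to 5.56) missed the test (edgeR adjusted p = 0.563). The largest gaps among the fibrillar collagens were in the pair that stood out above. Col27a1 had 10.8, 19.2 and 18.2 CPM with [SO3] and 60.3, 48.0 and 51.2 CPM with BSA, a log2 difference of -1.73 (SE 0.38, edgeR adjusted p = 0.193). Col5a3 had 19.6, 40.2 and 22.4 CPM with [SO3] and 105, 76.4 and 78.9 CPM with BSA, a log2 difference of -1.66 (SE 0.40, adjusted p = 0.273). Neither pair of groups overlapped. EdgeR called 0 of 31 collagens and 0% of all genes. Unadjusted, 6 of the 31 and 812 of all 13487 genes had an edgeR p under 0.05. DESeq2 called Col5a3 (adjusted p = 0.0166) and Col27a1 (0.00327), both lower with [SO3]. With only these groups in the fit edgeR called Col27a1 (adjusted p = 0.0247).

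With the HMGB1 antibody, Col1a1 had 53.1, 62.8 and 28.3 CPM, against 39.8, 23.3 and 16.1 CPM with BSA, and the groups overlapped (log2 difference 0.86, 95% interval -0.48 to 2.20). Col3a1 was at 143, 156 and 76.2 CPM with the antibody and 107, 86.4 and 72.3 CPM with BSA, also with overlap. Col27a1 had 35.7, 25 and 21 CPM with the antibody and 60.3, 48.0 and 51.2 CPM with BSA, without overlap. Its log2 difference was -0.96 (95% interval -1.69 to -0.24). EdgeR called 0 of 31 collagens and 0% of all genes, and DESeq2 called 0. Unadjusted, 4 of the 31 and 279 of all 13487 genes had an edgeR p under 0.05. No collagen-handling gene was called in either resolution comparison.

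In HSC-T6 cells, where 21 of the 27 collagens passed the filter, [SO3] HMGB1 for 6 h lowered most of the abundant collagens. Of the 21, 15 were lower and 2 higher with [SO3] than with BSA, beside 63.3% of all 10140 genes (31.1% higher, 32.2% lower), and the median log2 difference was -0.50 over the collagens and -0.02 over all genes. By class 7 of 9 fibrillar collagens, 2 of 3 collagen IV chains, the collagen VI chain Col6a2, both FACIT collagens and 3 of 6 others fell. Col1a1 had 29602, 27481 and 27718 CPM with [SO3] and 37809.5, 39036 and 39894 CPM with BSA, a log2 difference of -0.46 (SE 0.03, edgeR adjusted p = 4.53e-12). Col3a1 had 15885, 14890.1 and 14919.5 CPM with [SO3] and 21065, 21297 and 22470.1 CPM with BSA, a log2 difference of -0.50 (SE 0.03). Neither gene's groups overlapped.

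The second chain of collagen I, Col1a2, was at 52.8, 46.2 and 42.4 CPM with [SO3] and 72.6, 71.1 and 67.4 CPM with BSA, a log2 difference of -0.58 (SE 0.07). Col4a1 had 1373, 1384 and 1499 CPM with [SO3] and 1864, 1835 and 1822 CPM with BSA, a log2 difference of -0.38 (SE 0.03). Col6a2 had 1776, 1769.7 and 1796 CPM with [SO3] and 2276, 2197 and 2106 CPM with BSA, a log2 difference of -0.30 (SE 0.03). All 3 lay below BSA in every library. Among the members that passed the test, the steepest falls were in Col23a1, a transmembrane collagen (1.42, 0.285 and 0.813 CPM with [SO3], 2.25, 1.99 and 1.54 CPM with BSA, log2 difference -1.23), and the FACIT collagens Col14a1 (20.3, 18.8 and 18.6 CPM with [SO3], 37.9, 35.2 and 39.1 CPM with BSA, -0.96) and Col16a1 (329.7, 346 and 353 CPM with [SO3], 599, 543 and 531 CPM with BSA, -0.70).

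Against this trend, Col11a2 and Col7a1, both at low levels, rose. Col11a2 had 11.2, 11.3 and 11.3 CPM with [SO3] and 3.13, 2.34 and 3.25 CPM with BSA, a log2 difference of 1.96 (SE 0.14, edgeR adjusted p = 1.6e-11). Its partner chain in collagen XI, Col11a1, fell by 0.57 on the log2 scale. Col7a1 had 9.02, 7.70 and 8.89 CPM with [SO3] and 3.33, 3.27 and 2.91 CPM with BSA, a log2 difference of 1.42 (SE 0.14, adjusted p = 2.33e-09). Col4a3 (-0.62) lost its call without [SO3] library 1 (adjusted p = 0.0545), and the other 16 calls held under all 12 alternatives. Col27a1 (-0.27, adjusted p = 0.0761), Col4a4, Col15a1 and Col17a1 did not pass. The dividing cell markers summed to 286 to 322 CPM with [SO3] and 593 to 650 CPM with BSA, and Sox9 was at 8.25 to 9.59 CPM with [SO3] and 22.3 to 29.6 CPM with BSA. Of 6 stellate cell and fibroblast markers 3 fell, and of the mesothelium markers both that were tested fell. Their part was not tested. Of 22 biosynthesis genes 14 fell, led by the propeptide protease Adamts2 (-0.41) and Loxl3 (-0.40), and 2 rose (Loxl4 0.23, Loxl1 0.15). Of 7 breakdown genes 2 rose (the protease Ctsk 1.52, Mmp2 0.38) and 2 fell (Mrc2 -0.46, Timp2 -0.15), and of 6 receptors 2 rose (Itga10 0.56, Ddr1 0.39) and 3 fell (Itga1 -0.73 and Itga11 -0.30 led).

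With [O] HMGB1 the collagens of HSC-T6 cells moved in both directions by small amounts. Of 21, 4 were higher and 4 lower than with BSA, beside 43.9% of all genes (23.7% higher, 20.2% lower), and the median log2 difference was -0.05 over the collagens and -0.01 over all genes. Col27a1 had 148, 139 and 121 CPM with [O] and 93.3, 75.0 and 66.2 CPM with BSA, a log2 difference of 0.79 (SE 0.11, edgeR adjusted p = 0.000235). Col3a1 had 18128, 18725 and 19072 CPM with [O] and 21065, 21297 and 22470.1 CPM with BSA, a log2 difference of -0.21 (SE 0.03, adjusted p = 8.76e-06). Neither overlapped. Col1a1 had 40449, 40958 and 41851 CPM with [O] and 37809.5, 39036 and 39894 CPM with BSA, and all [O] libraries were above all BSA libraries. Its log2 difference of 0.08 (SE 0.03, adjusted p = 0.045) lost its call without BSA library 1 (0.155) or 2 (0.0995) or [O] library 2 (0.0915) or 3 (0.149).

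Col14a1 had 31.9, 28.2 and 28.6 CPM with [O] and 37.9, 35.2 and 39.1 CPM with BSA, a log2 difference of -0.34 (SE 0.07). Col16a1 had 488, 501 and 496 CPM with [O] and 599, 543 and 531 CPM with BSA, a log2 difference of -0.17 (SE 0.04). Both FACIT collagens thus lay lower with [O] in every library. Col4a1 had 2040.5, 2078 and 1975 CPM with [O] and 1864, 1835 and 1822 CPM with BSA, a log2 difference of 0.14 (SE 0.03). Col15a1 had 2.26, 1.97 and 2.44 CPM with [O] and 1.09, 1.63 and 1.71 CPM with BSA, a log2 difference of 0.61 (SE 0.22, edgeR adjusted p = 0.0311) that lost its call without BSA library 1 (0.182) or [O] library 1 (0.0718) or 3 (0.0924). Acta2, a myofibroblast gene, was at 1121 to 1173 CPM with [O] and 642 to 656 CPM with BSA, and was the only 1 of 6 tested stellate cell and fibroblast markers that rose. In that list 3 fell, namely Pdgfrb (481 to 505 CPM with [O], 644 to 697 CPM with BSA), Des (23.5 to 25.4 CPM with [O], 29.0 to 33.8 CPM with BSA) and Vim (4837 to 5089 CPM with [O], 5275 to 6028 CPM with BSA). The list summed to 6494 to 6768 CPM with [O] and 6650 to 7351 CPM with BSA. The smooth muscle markers summed to 67.6 to 77.1 CPM with [O] and 17.4 to 19.8 CPM with BSA, with 1 of 2 higher. The mesothelium markers summed to 74.2 to 75.8 CPM with [O] and 60.8 to 70.4 CPM with BSA, with 2 of 2 higher. Of the dividing cell markers 1 of 2 was lower. The part of these lists was not tested. Of the collagen-handling genes, 3 of 22 biosynthesis genes rose (Loxl4 0.96, P4ha2 0.51) and 6 fell (Adamts14 -0.44, Loxl3 -0.26), 1 of 7 breakdown genes rose (Mmp13 1.85) and 2 fell (Mrc2 -0.16, Mmp14 -0.13), and 3 of 6 receptors rose (Ddr2 0.91, Itga10 0.43) and Ddr1 fell by 0.26.

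The [SO3] and [O] cells were also compared with each other. Of 21 collagens, 17 were lower and 2 higher with [SO3] than with [O], beside 59.2% of all genes (29.1% higher, 30% lower), with a median log2 difference of -0.52. Col1a1 was lower by a log2 difference of -0.54 (SE 0.03, edgeR adjusted p = 1.74e-13) and Col27a1 by -1.06 (SE 0.11), with 61.6, 65.3 and 68.7 CPM with [SO3] and 148, 139 and 121 CPM with [O]. Col18a1 had 195, 197 and 199 CPM with [SO3] and 327, 318 and 369 CPM with [O], a log2 difference of -0.78. Col11a2 was higher by 2.26, with 11.2, 11.3 and 11.3 CPM with [SO3] and 2.08, 2.23 and 2.77 CPM with [O]. Col7a1 was higher by 1.23, with 9.02, 7.70 and 8.89 CPM with [SO3] and 3.55, 4.33 and 3.02 CPM with [O]. Col23a1 (-0.78, adjusted p = 0.0468) lost its call without [O] library 1 (0.117) or 3 (0.109) or [SO3] library 2 (0.307, log2 difference -0.36) or 3 (0.0760), and Col4a3 without [O] library 1 (0.0678) or [SO3] library 1 (0.0852).

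With [H] HMGB1, edgeR called 0 of 21 collagens, beside 0.799% of all genes (0.316% higher, 0.483% lower), and DESeq2 called 0. Col1a1 had 36907, 36083 and 36589 CPM with [H] and 37809.5, 39036 and 39894 CPM with BSA, and Col3a1 had 20570.4, 20096 and 19846 CPM with [H] and 21065, 21297 and 22470.1 CPM with BSA. All [H] libraries were below all BSA libraries for both. The log2 differences were -0.09 (95% interval -0.15 to -0.03, adjusted p = 0.158) and -0.10 (-0.16 to -0.03, adjusted p = 0.147). With Col5a2 (-0.08), 3 of the 21 collagens had an unadjusted edgeR p under 0.05, beside 1713 of all 10140 genes. With only these groups in the fit Col1a1 (adjusted p = 0.0440) and Col3a1 (0.0424) were called. Col1a2 had 72.7, 65.2 and 78.4 CPM with [H] and 72.6, 71.1 and 67.4 CPM with BSA, Col4a1 had 1887, 1891 and 1879 CPM with [H] and 1864, 1835 and 1822 CPM with BSA, and Col6a2 had 2239, 2182 and 2147 CPM with [H] and 2276, 2197 and 2106 CPM with BSA. Of these, Col1a2 and Col6a2 overlapped with BSA. Among collagen-handling genes Plod2 fell by 0.17 and Itga1 rose by 0.33. The 6 collagens that did not pass the filter in the cells (Col2a1, Col6a4, Col9a1, Col9a2, Col13a1 and Col26a1) stayed at or under 0.256 CPM.

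**Figure D5:**
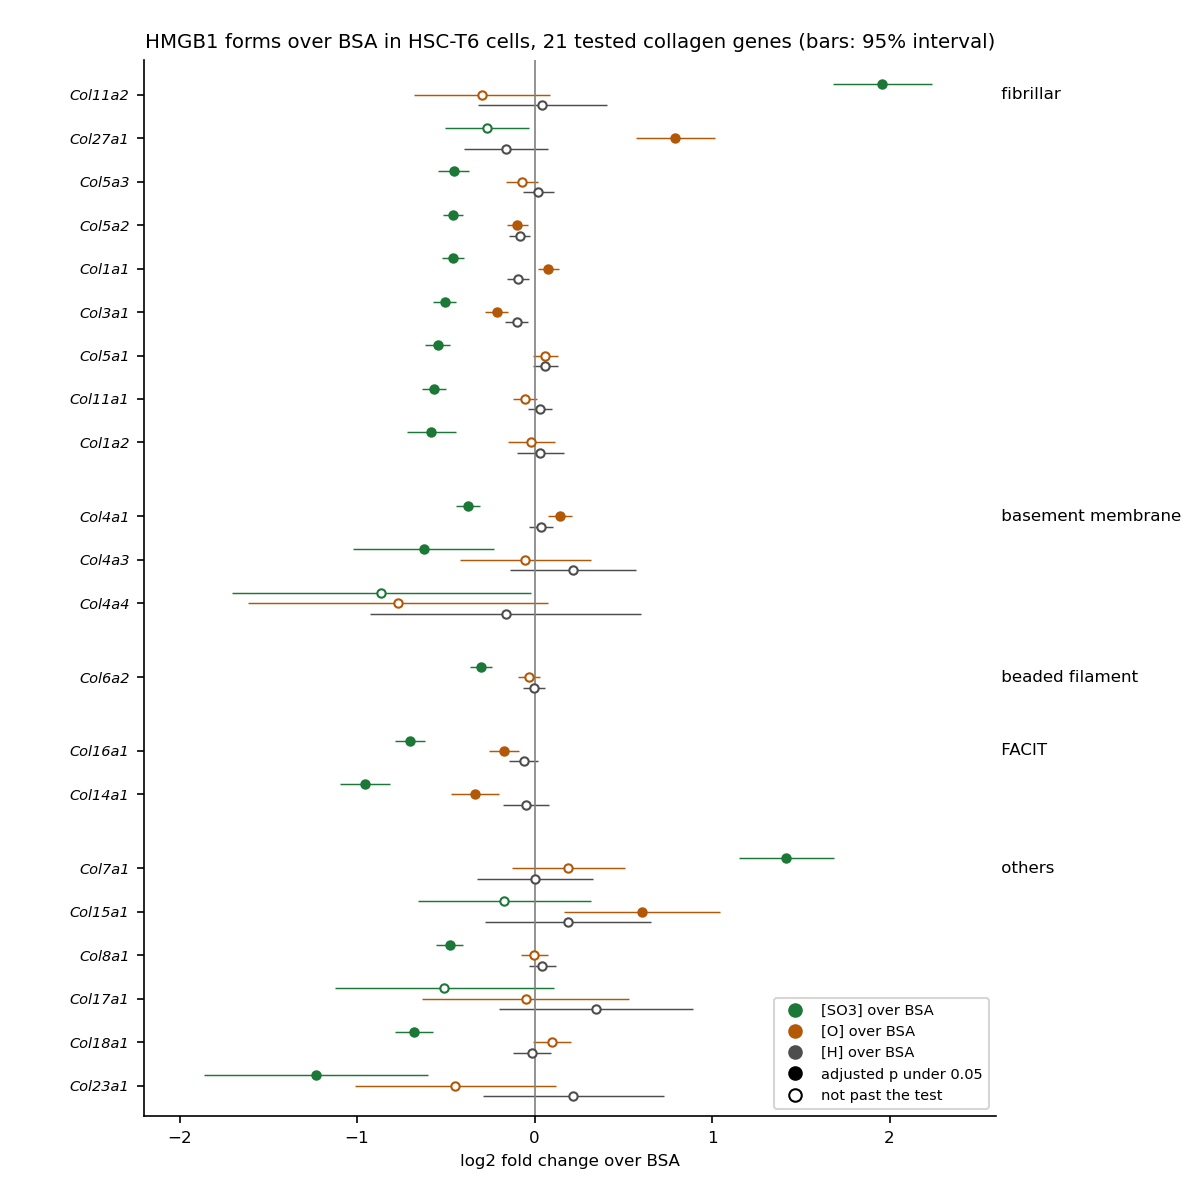
Log2 difference over BSA for the 21 tested collagens of HSC-T6 cells with [SO3], [O] and [H] HMGB1, ordered by class. Points are edgeR estimates, bars 95% intervals, and filled points have an adjusted p under 0.05. Most [SO3] points lie left of 0, Col11a2 (1.96) and Col7a1 (1.42) lie right, and Col27a1 lies right with [O] (0.79).

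How chains of 1 collagen kept pace with each other is given as ratios of CPM per kb. Col1a1 over Col1a2 was 0.881 to 1.25 in wild-type CCl4 livers and 0.255 to 0.422 in wild-type MO livers, 0.990 to 1.29 in +WT CCl4 livers and 0.341 to 0.776 in +WT MO livers, and 0.968 to 1.18 in +Δ[O] CCl4 livers and 0.416 to 0.563 in +Δ[O] MO livers. The ratio was higher with CCl4 in every liver of each arm. In the fibrosis livers it was 0.930 to 1.05 with [O], 0.693 to 0.765 with [H] and 0.578 to 1.01 with BSA. In HSC-T6 cells it was far higher, at 506 to 590 with [SO3], 519 to 539 with [O], 421 to 499 with [H] and 470 to 533 with BSA, and the processing notes name a mouse build for these rat libraries, so levels set between genes there are uncertain. Col3a1 over Col1a1 was 1.35 to 1.55 in wild-type CCl4 livers and 2.23 to 4.25 in wild-type MO livers, and 0.478 to 0.487 in HSC-T6 cells with [O] and 0.581 to 0.600 with BSA.

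Col6a3 over Col6a1 was 0.510 to 0.608 in wild-type CCl4 livers and 0.126 to 0.305 in wild-type MO livers, 0.886 to 0.967 in +WT CCl4 livers and 0.247 to 0.323 in +WT MO livers, and 0.502 to 0.930 in +Δ[O] CCl4 livers and 0.298 to 0.445 in +Δ[O] MO livers. Col4a1 over Col4a2 varied less, from 1.01 to 1.93 over all livers of both tables. Col4a1 and Col4a2 lie head to head on chromosome 8 with a gap of -22 bases, that is, their ends overlap, and Col4a4 and Col4a3 lie head to head on chromosome 1 with 71 bases between them (GRCm38). Both pairs were called together in +WT against wild-type CCl4 livers. Col3a1 (chr1:45311538-45349706, plus strand) and Col5a2 lie tail to tail 24.6 kb apart, and both rose with CCl4 in all 3 arms. Col4a6 and Col4a5 lie head to head on chromosome X with 1308 bases between them, and there Col4a5 rose with CCl4 in all 3 arms while Col4a6 was called in none of them in the fit over all groups.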

How the data were processed

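The authors deposited 3 tables of gene counts, as whole numbers with no normalization, from TruSeq Stranded mRNA libraries of 21 and 18 mouse livers and 12 rat HSC-T6 cultures, per the labels' protocols. The submitters' processing notes name mm10. No aligner, counter, annotation or strand setting is recorded there (not given in the sources used here). Entries that name no gene were left out. Relative to gene counts, the no-feature entry came to 32.0% to 35.2% in cells and 5.50% to 8.51% in the first liver table. There were 0 count columns without a sample.

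Each table was fitted once over all its groups with edgeR 4.0.16 in R 4.3.3 (robust quasi-likelihood test, TMM, filterByExpr at 10 counts and a total of 15, Benjamini-Hochberg adjustment over all genes, called at an adjusted p under 0.05). All adjusted p-values come from edgeR unless DESeq2 (1.42.0) is named. CPM was computed with edgeR from the counts and the TMM-scaled library sizes. Intervals are 95% intervals from a normal approximation, with the SE derived from the log2 difference and the edgeR test statistic. They can be narrower than the edgeR test implies. Since nothing in the labels ties a number to its own animal or culture, p-values measure only the spread between these samples. The edgeR fit was run on simulated counts for the first comparison of each table, at a fixed spread not estimated from these data. That run does not show how the fits behave at the spread of these livers. Replicates of a group differed by more than counting noise, with chi-square per degree of freedom of at least 1.46 in cells, 10.2 in the second and 11.0 in the first liver table.

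The members and all gene lists were chosen with earlier results of these data known. Named with values for every library were Col1a1, Col1a2, Col3a1, Col4a1, Col4a2, Col6a1, Col6a2 and Col6a3 and, per comparison, up to 3 called members of largest log2 difference per direction, and of the collagen-handling lists up to 2 per direction. Other members with values were chosen after these were seen. Overlap of groups is described for named genes and lists only, and its share over all genes was not computed.

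Replicate numbers come from the labels. Deviations of same-numbered libraries from their group means, taken on log2 CPM with a prior count of 2, correlated above 0.1 in every pair for the 3 fibrosis comparisons (0.187 to 0.708), for +Δ[O] against +WT livers with CCl4 (0.108 to 0.261) and MO (0.289 to 0.454), and for +WT against wild-type CCl4 livers (0.116 to 0.313), so the numbers were taken to pair these livers. Differently numbered libraries were not correlated for reference, so this pairing is an assumption. For the other comparisons the numbers were not taken as pairs. The main fit held no replicate block, also where pairs were taken. Alternatives were DESeq2, RLE size factors, no filter on low counts, only the groups compared, the replicate block, and leaving out each library in turn. A fit of only the groups compared with the block was added after seeing the data.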

Additional observations from a re-analysis of the deposited data

Results flagged for a closer look

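The CCl4 response of Col15a1 differed between the +WT and the wild-type livers by the interaction test, with a log2 difference of -1.265 (edgeR adjusted p = 0.00537). Among groups of 4 livers, 99 pairs of a gene and a group were examined for a library far from the others by Dixon's criterion. Of these 5 stood out, and chance gives about 1 in 20. In wild-type CCl4 livers, library 3 had 1.073 CPM of Col4a4 against 0.485 to 0.582 CPM in the others, and 0.4929 CPM of Col6a4 against 0.0277 to 0.0542 CPM. Library 4 of that group had 26.51 CPM of Col6a3 against 48.6 to 52.4 CPM. In +Δ[O] CCl4 livers, library 5 had 3.27 CPM of Col12a1 against 7.40 to 7.73 CPM in the others. The same library had 5.675 CPM of Col25a1, a transmembrane collagen, against 0.182 to 0.496 CPM.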

How the results depend on the processing

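Of the calls reported, those kept under every alternative were 17 of 20 for CCl4 against MO in wild-type livers, 18 of 22 in +WT and 13 of 17 in +Δ[O] livers, 7 of 16 for +WT against wild-type CCl4 livers, 0 of 4 for +Δ[O] against +WT CCl4 livers, 0 of 10 for resolution against fibrosis, and 16 of 17, 6 of 8 and 17 of 19 in cells for [SO3], for [O] and for [SO3] against [O]. Shares over all genes are given for the main fit only. Counts that moved by over 1.5 times were as follows, and the cause was not tested. DESeq2 called 7 for +Δ[O] against +WT CCl4 livers, 11 for [O] against [H], 16 for resolution against fibrosis and 2 for resolution [SO3]. RLE size factors gave 2 for +Δ[O] against +WT CCl4 livers, and no filter gave 5 for resolution against fibrosis. With only the groups compared the counts were 2 for +Δ[O] against +WT CCl4 livers, 2 for [H] cells, 2 for the +WT minus wild-type response, 0 for resolution against fibrosis and 1 for resolution [SO3]. With the replicate block the +WT minus wild-type response gave 2, and the block moved no other count by over 1.5 times. With only the groups compared and the block, chosen after seeing the data, counts were 8 for +WT against wild-type CCl4 livers, 0 for +Δ[O] against +WT CCl4 livers, 11 for [O] against [H], 0 for resolution against fibrosis and 1 for resolution [SO3].

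Leaving out 1 library gave 10 to 15 calls for +WT against wild-type CCl4 livers, 0 to 4 for +Δ[O] against +WT CCl4 livers, 1 to 2 for the +WT minus wild-type response, 0 to 1 for the +Δ[O] minus +WT response and 0 to 15 for resolution against fibrosis. Col25a1 in +Δ[O] livers (CCl4 over MO, log2 difference 0.11) reversed to -2.09 (edgeR adjusted p = 0.0341) with only the groups compared and the replicate block, and ranged from -2.16 without CCl4 library 5 to 0.50 without CCl4 library 3. Depth limits the low collagens: those under about 1 CPM rest on few counts per library.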
